A study of Mus musculus with 59 samples.

Results

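The APOE3 females that still cycled, but irregularly, at 15 months (15M-Irreg group, n = 7) were compared to their irregularly cycling counterparts at 9 months (9M-Irreg group, n = 6). They are 13 of the 59 hippocampal RNA-sequencing libraries of the study, with 1 library per animal, and were chosen by genotype, age and cycling status as labelled. The study followed homozygous humanized APOE3 and APOE4 females through a mouse model of perimenopause, in which the human gene replaces mouse Apoe by targeted replacement. Levels are also given for its other stages: regular cyclers at 6 and 9 months (6M-Reg and 9M-Reg) and acyclic females at 15 months (15M-Acyc). The APOE4 groups of the same stages are set beside them. All 13 animals were female, of the genotype hAPOE3/hAPOE3, and no drug or other agent is named for them. Cycling was scored by daily vaginal cytology, and irregular cycles were those longer than the regular ones of young females. The groups came from separate cohorts, and animals that met no endocrine criterion were excluded, so the older group holds the females that had not yet become acyclic. The methods let the older age begin slightly below the 15 months of the labels. Cycling status is shared by both groups, so the step between them is one of age and cohort, which cannot be told apart.

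The estrous cycle of the mouse lengthens and then stops with age, as the ovary runs short of follicles and the secretion of estradiol and progesterone becomes erratic. Myelin, the lipid-rich sheath of axons, is made by oligodendrocytes, which go on maturing from precursors in adult brain. Microglia, the resident macrophages of brain, clear debris and prune synapses, and in aging white matter part of them take up a lysosomal and lipid-handling state that depends on the receptor Trem2.

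Reads counted on genes numbered 21157651 to 28773103 per library at 9 months and 22928488 to 28428663 at 15 months, and total counts did not separate the groups (two-sided exact permutation test, p = 0.163, where the smallest possible p is 0.000583). Hippocampal markers were present in every library. Markers of CA1 summed to 373 to 451 TPM (transcripts per 1e+06 transcripts) at 9 months and 338 to 436 TPM at 15 months, and markers of the dentate gyrus to 235 to 267 TPM and 219 to 272 TPM. Mouse Apoe, the gene replaced, was at 2.39 to 5.69 CPM (counts per 1e+06 counts) in the 9M-Irreg group and at 2.07 to 4.97 CPM in the 15M-Irreg group. The reads were quantified on mouse transcripts, so the human transgene was not measured here. In 1 library, 9M-Irreg replicate 2, pituitary hormone transcripts summed to 334 TPM, beside 2.6 to 20.5 TPM in the other 12 libraries, and values without it are given beside several results that it moved.

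No gene passed the test of the step from 9M-Irreg to 15M-Irreg. Of 18584 genes tested with edgeR's quasi-likelihood test, 0 (0%) had a Benjamini-Hochberg adjusted p under 0.05, and the smallest adjusted p was 0.166. An unadjusted p under 0.05, called nominal from here on, was reached by 1278 genes (6.88%), of which 710 were higher at 15 months (3.82%) and 568 lower (3.06%). On the same counts DESeq2 called 3 genes with its own size factors and 4 with the normalization factors of the authors, and limma on the normalized values called 0. The gene Bcas1 was the only one that both DESeq2 runs called. Single genes are therefore described below by their levels and intervals. Between the 5th and the 95th percentile of the genes, the log2 fold change ran from -0.32 to 0.34, and its median was 0.00.

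**Figure D1:**
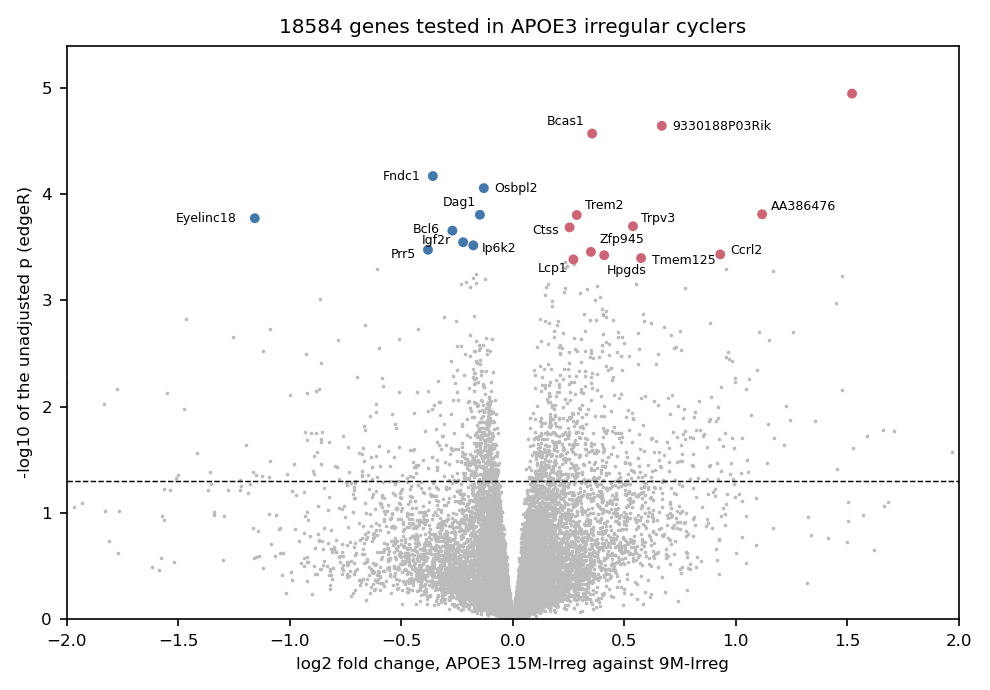
Each point is 1 of 18584 genes, placed by its log2 fold change between the APOE3 15M-Irreg (n = 7) and 9M-Irreg (n = 6) groups and by -log10 of its unadjusted p in edgeR. The dashed line marks an unadjusted p of 0.05, colored points are the 20 genes of smallest p (12 higher, 8 lower; the unlabelled one is ENSMUSG00000081339), and 34 genes lie beyond the horizontal axis.

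Genes of mature oligodendrocytes stood higher at 15 months as a group, with a median log2 fold change of 0.23 over the 23 genes listed, beside 0.00 over all genes. The log2 fold change was above 0 for 23 of the 23, and 11 of them were nominal and higher, beside 3.82% of all genes, with none nominal and lower. None had an adjusted p under 0.05. Genes of one cell type share its abundance, so these counts are not of independent genes, and in bulk tissue a change in the number of cells of a type cannot be told apart from a change in RNA per cell.

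Mobp, a myelin-associated basic protein of oligodendrocytes, was at 895, 1053 and 1181 CPM (lowest, median and highest animal) at 9 months and at 1118, 1245 and 1376 CPM at 15 months, with a log2 fold change of 0.25 (SE 0.08, adjusted p = 0.456). Here 6 of 7 older animals stood above every 9-month animal. Il33, a cytokine stored in oligodendrocyte and astrocyte nuclei, had medians of 49.8 CPM and 67.2 CPM and a log2 fold change of 0.31 (SE 0.10). Mbp, myelin basic protein, ranged from 2011 to 2687 CPM at 9 months and from 2381 to 2790 CPM at 15 months (0.19, 95% interval 0.04 to 0.34). Cnp, the oligodendrocyte enzyme CNPase, ranged from 221 to 320 CPM and from 240 to 331 CPM, and its interval reached 0 (0.16, -0.00 to 0.32).

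The summed level of the mature oligodendrocyte genes was 4126, 4888 and 5854 TPM (lowest, median, highest) at 9 months and 4959, 5808 and 6186 TPM at 15 months. Replicates 1 and 6 of the 9M-Irreg group held the lowest sums, 4126 and 4403 TPM, and replicate 2 the highest of that group. Without replicate 2, 15 of the 23 genes were nominal and higher, and the median was 0.28. The count was 7 without 9M-Irreg replicate 1 (median 0.19) or without 15M-Irreg replicate 4, the animal with the highest sum (median 0.18). It was 16 without 15M-Irreg replicate 6 or 7, the lowest of the older animals, and the log2 fold change was above 0 for 23 of 23 without any 1 of the 13 animals.

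At the level of transcripts, named as in GENCODE, the leading transcript of Mbp, Mbp-211, was at 1601 ± 217 TPM (SD, n = 6) at 9 months and 1816 ± 113 TPM (SD, n = 7) at 15 months. The smaller Mbp-215 was at 60.2 ± 35 TPM and 50.7 ± 35.2 TPM, a spread between animals larger than the difference.

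Among 18 myelin genes that the study displayed, 6 were nominal and higher (all genes 3.82%) and 0 nominal and lower, with a median of 0.18. How the study picked them is not stated and they were displayed for these samples, so their count is not independent evidence of direction. The gene of smallest p in it was Pmp22, a myelin protein better known from peripheral nerve (chr11:63128982-63159547, GRCm38). It was at 17.9, 18.9 and 20.8 CPM at 9 months and at 21.2, 22.2 and 25.4 CPM at 15 months (log2 fold change 0.28, SE 0.07, adjusted p = 0.345). The 2 groups did not overlap for Pmp22, a pattern found for 23 of the 18584 genes in the higher direction (0.124%) and for 22 in the lower (0.118%).

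Genes of oligodendrocyte precursors and early oligodendrocytes had a median of 0.02 over 15, with 8 above 0, which was 0.05 without 9M-Irreg replicate 6 and -0.01 with GC and length offsets. The 3 nominal genes, all higher (all genes 3.82%), were Bcas1, Enpp6 and Olig1. Bcas1, which marks newly forming, myelinating oligodendrocytes (chr2:170346991-170427845), was at 137, 145 and 163 CPM at 9 months and at 163, 191 and 208 CPM at 15 months. Its log2 fold change was 0.36 (SE 0.08, 95% interval 0.20 to 0.51, adjusted p = 0.166), and 6 of 7 older animals stood above the highest 9-month animal. The main transcript of this gene, Bcas1-208, was at 86.2 ± 6.32 TPM (SD, n = 6) and 111 ± 10.1 TPM (SD, n = 7). Enpp6, a phosphodiesterase of the same early stage, had medians of 5.12 CPM and 6.90 CPM (0.42, SE 0.14). Olig1, a transcription factor of the whole lineage, had medians of 91.4 CPM and 108 CPM (0.20, SE 0.08). Pdgfra, the growth factor receptor that defines dividing precursors, had medians of 66.5 CPM and 56.4 CPM and an interval on either side of 0 (-0.09, -0.21 to 0.04), and its log2 fold change was -0.15 without 9M-Irreg replicate 2. Tmem125, a small membrane protein transcript at low level, is not on this list and was picked as 1 of the 20 genes of smallest p. It was at 3.54, 4.23 and 6.94 CPM and at 4.79, 6.63 and 9.11 CPM (0.58, SE 0.15, adjusted p = 0.345), with the highest 9-month value in replicate 2.

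Genes of homeostatic microglia stood higher at 15 months too. Of 15 such genes, 15 had a log2 fold change above 0, with a median of 0.19, and 8 were nominal and higher, beside 3.82% of all genes. None had an adjusted p under 0.05. Cx3cr1, the fractalkine receptor, was at 33.9, 39.5 and 43.9 CPM at 9 months and at 38.5, 44.4 and 51.7 CPM at 15 months (log2 fold change 0.21, SE 0.07, adjusted p = 0.416). Of the older animals, 5 stood above the highest 9-month animal. Siglech and Cd33, both sialic acid-binding lectins, had log2 fold changes of 0.21 (SE 0.08) and 0.27 (SE 0.12), and that of Cd33 was 0.01 in limma on the authors' normalized values. Aif1, which encodes IBA1, was at 2.48 to 3.72 CPM and 2.41 to 4.69 CPM, and its interval held 0 (0.21, -0.06 to 0.47). The log2 fold change of Aif1 was 0.13 without 15M-Irreg replicate 1.

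Summed over the homeostatic list, the level was 242, 265 and 291 TPM at 9 months and 271, 295 and 326 TPM at 15 months. The ranges overlapped in the part between the lowest older animals, replicates 2 and 7, and the highest 9-month animal, replicate 2. Without 15M-Irreg replicate 1, 3 of the 15 genes were nominal and higher (median 0.16). The count was 4 without 9M-Irreg replicate 4, 5 without 9M-Irreg replicate 5 or 15M-Irreg replicate 4, and 5 in a fit of the compared groups alone, with 15 of 15 above 0 in each.

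Of 24 genes of the activated microglial state, 20 were above 0 and 6 were nominal and higher (all genes 3.82%), with a median log2 fold change of 0.16. This median was 0.05 when genes below 10 counts in any library were left out, 0.10 without 9M-Irreg replicate 4 and 0.11 without 9M-Irreg replicate 3. Their summed level was 1028, 1192 and 1396 TPM at 9 months and 1067, 1175 and 1317 TPM at 15 months, with means of 1187 and 1180 TPM, so the sums overlapped and stood no higher in the older group. Trem2, the lipid-sensing receptor on which that state depends (chr17:48346401-48354147), was at 8.80, 10.1 and 11.1 CPM at 9 months and at 8.97, 12.6 and 13.6 CPM at 15 months. The log2 fold change of Trem2 was 0.29 (SE 0.07, 95% interval 0.15 to 0.43, adjusted p = 0.341). The older animals split, with 5 above every 9-month animal and replicates 2 and 7 within the 9-month range, and without replicate 7 the adjusted p of Trem2 in edgeR was 0.032 (log2 fold change 0.35), the smallest of a range up to 0.64 over the alternatives. Ctss, the lysosomal protease cathepsin S (chr3:95526786-95556403), was at 51.5, 54.6 and 57 CPM and at 60.6, 64.8 and 73.6 CPM (0.26, SE 0.06, adjusted p = 0.341). For Ctss all 7 older animals stood above all 6 younger ones. Clec7a, the beta-glucan receptor dectin-1, was near the limit of detection, with medians of 0.273 CPM and 0.780 CPM (0.98, SE 0.32). Cd68, a lysosomal membrane protein of phagocytes, had medians of 5.69 CPM and 6.63 CPM (0.23, SE 0.08). The 3 genes that follow were picked from the 20 genes of smallest p and not as members of this list. Their direction is therefore not independent of that choice. Lcp1, an actin-bundling protein of leukocytes (chr14:75131101-75230842), was at 7.55, 7.85 and 8.45 CPM and at 8.79, 9.64 and 10.7 CPM (0.27, SE 0.07, adjusted p = 0.345), again without overlap, and its log2 fold change was 0.15 in limma on the normalized values. Hpgds, the hematopoietic prostaglandin D synthase of microglia (chr6:65117293-65144908), had medians of 5.48 CPM and 7.30 CPM (0.41, SE 0.11), with 6 of 7 older animals above the highest younger one. Ccrl2, an atypical chemokine receptor (chr9:111054486-111057519), was low, with medians of 0.455 CPM and 0.965 CPM (0.93, SE 0.24).

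**Figure D2:**
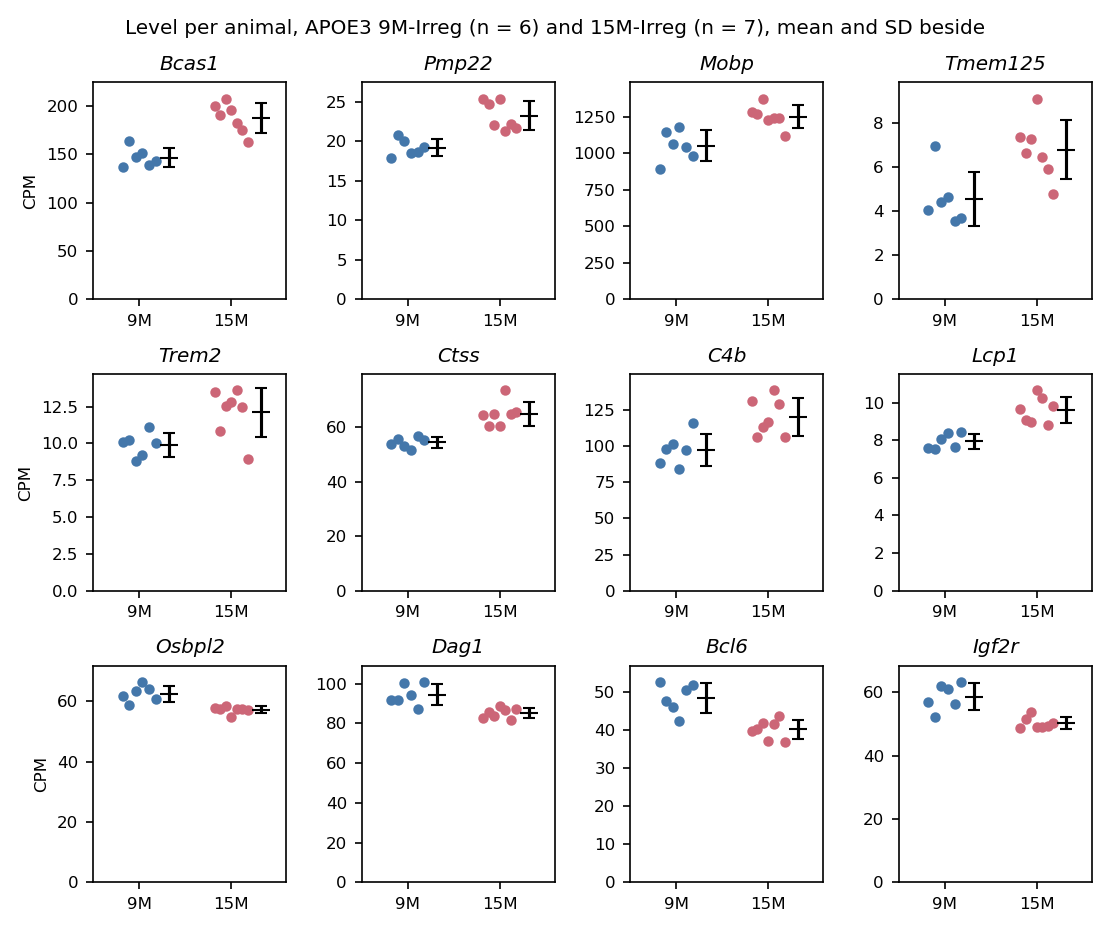
CPM per animal of 12 genes in the APOE3 9M-Irreg (blue, n = 6) and 15M-Irreg (red, n = 7) groups, in order of replicate from left to right, with the mean and SD beside the points and axes that start at 0. The groups are apart for Pmp22, Ctss, Lcp1 and Osbpl2 and overlap for the other 8 genes.

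Complement genes gave a median of 0.16 over 16 tested, with 12 above 0 and 4 nominal and higher (C1qb, C4b, Itgb2 and C1qa), beside 3.82% of all genes. The complement median was 0.06 in limma on the normalized values, 0.09 in DESeq2 with the authors' factors and 0.10 without 9M-Irreg replicate 2. C4b, a component of the classical pathway made by astrocytes and oligodendrocytes as well as microglia, was at 84.0, 97.6 and 116 CPM at 9 months and at 106, 117 and 139 CPM at 15 months (0.30, SE 0.11, adjusted p = 0.586). C1qb, a chain of the initiating complex, had medians of 36.9 CPM and 42.5 CPM (0.21, SE 0.07). C1qa had 35 CPM and 39.9 CPM (0.16, SE 0.08), and the integrin chain Itgb2, part of complement receptor 3, had 4.94 CPM and 6.17 CPM (0.27, SE 0.10). Class I presentation genes had a median of 0.12, with 12 of 15 above 0 and none nominal (0.20 without 9M-Irreg replicate 6 and 0.18 without 15M-Irreg replicate 3). Class II genes had a median of -0.14, with 1 of 7 above 0 and none nominal, and with 1 animal left out the median ran from -0.33 (9M-Irreg replicate 2) to 0.07 (9M-Irreg replicate 6). It was also above 0 without 9M-Irreg replicate 3 (0.05), and farther below 0 without 15M-Irreg replicate 5 (-0.26), 9M-Irreg replicate 5 (-0.22) or 15M-Irreg replicate 4 (-0.21). The class II median was 0.03 with choroid plexus markers as a covariate and -0.01 in limma on the normalized values. Interferon response genes had a median of 0.04 and 2 nominal genes of 24, beside 6.88% of all genes in either direction, Ifit2 (0.21, SE 0.09) and Xaf1 (0.28, SE 0.12). In 9M-Irreg replicate 6 the interferon genes summed to 532 TPM, beside 214 to 323 TPM in the other animals of its group. Without it the interferon median was 0.26 with 24 of 24 above 0, and without 9M-Irreg replicate 1 it was -0.02.

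Among the cytokines measured by the study, Il6 was not tested, with 0 to 4 counts per library at 9 months and 0 to 5 at 15 months. Il1b was at 0.122 to 0.335 CPM and 0.0859 to 0.450 CPM, and its interval was wide (0.05, -0.76 to 0.86). Astrocyte genes had a median of 0.04 over 14 (0.02 without 9M-Irreg replicate 3 and 0.07 without replicate 5), with 2 nominal and higher (all genes 3.82%), S100b and Gfap. S100b, a calcium-binding protein of astrocytes and oligodendrocytes, was at 92.0, 102 and 112 CPM and at 107, 114 and 118 CPM (0.16, SE 0.05, adjusted p = 0.416). Gfap, the filament protein of reactive astrocytes, was at 404, 459 and 465 CPM and at 456, 477 and 556 CPM (0.15, SE 0.07, adjusted p = 0.699). Genes of reactive astrocytes had a median of 0.03 over 19, with 11 above 0 and 8 below. Of them 2 were nominal and higher, beside 3.82% of all genes. The median ran from -0.07 without 9M-Irreg replicate 2 to 0.08 without 9M-Irreg replicate 6. Lcn2, a secreted marker of inflamed astrocytes, had the highest log2 fold change of that list (1.53). It was at most 1.10 CPM in any animal, with medians of 0.117 CPM and 0.357 CPM.

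Of the 20 genes of smallest p, 8 had lower levels at 15 months. Osbpl2, an oxysterol-binding lipid transfer protein (chr2:180119306-180162680), was at 58.9, 62.6 and 66.5 CPM at 9 months and at 54.7, 57.4 and 58.4 CPM at 15 months. The log2 fold change of Osbpl2 was small, -0.13 (SE 0.03, adjusted p = 0.326), and the groups did not overlap. Dag1, dystroglycan, which anchors cells to the basement membrane (chr9:108204634-108263958), was at 87.0, 93.0 and 101 CPM and at 81.8, 85.9 and 88.5 CPM (-0.15, SE 0.04). Fndc1, a fibronectin domain protein (chr17:7738569-7827302), had medians of 9.28 CPM and 7.09 CPM (-0.36, SE 0.08, adjusted p = 0.313). Of the older animals, 6 stood below the lowest 9-month animal for Fndc1 and 5 for Dag1. Bcl6, a transcriptional repressor (chr16:23965052-23988852), was at 42.5, 49.1 and 52.7 CPM and at 36.9, 40.4 and 43.9 CPM (-0.27, SE 0.07). Igf2r, the receptor that carries mannose 6-phosphate enzymes to lysosomes (chr17:12682406-12769664), had medians of 59 CPM and 49.4 CPM (-0.22, SE 0.06). Both had 6 of 7 older animals below every younger one. Ip6k2, an inositol hexakisphosphate kinase (chr9:108783796-108806337), was at 123 to 139 CPM and 100.2 to 121 CPM, without overlap (-0.18, SE 0.05). Prr5, a subunit of mTOR complex 2 (chr15:84669620-84703673), had medians of 7.65 CPM and 6.38 CPM (-0.38, SE 0.10).

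The other genes among the 20 of smallest p were the cation channel Trpv3 (chr11:73267388-73300363; medians 1.30 CPM and 1.95 CPM), the zinc finger gene Zfp945 (chr17:22846697-22867134; 10.1 CPM and 12.9 CPM) and 4 gene models without a descriptive name. They were ENSMUSG00000081339, 9330188P03Rik and AA386476, with higher levels at 15 months, and Eyelinc18, with a lower level. In all, 12 of the 20 were higher and 8 lower, and their adjusted p ran from 0.166 to 0.345. The groups did not overlap for 7, beside 0.124% of all genes in the higher direction and 0.118% in the lower. The 20 were picked by smallest p, so this count is not independent of that choice.

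Immediate early genes, which neurons and other cells switch on within minutes of a stimulus, had a median of 0.13, with 18 of 22 above 0 and 6 nominal and higher, beside 3.82% of all genes. In a fit of the compared groups alone 9 were nominal and higher and 1 lower, and without 15M-Irreg replicate 1 the counts were 4 and 1 and the median 0.08. Dusp1, a phosphatase that turns off MAP kinases, was at 14.3, 22.2 and 26.1 CPM at 9 months and at 24, 38.1 and 45.4 CPM at 15 months (0.72, SE 0.23, adjusted p = 0.416). For this gene 6 of 7 older animals stood above the highest younger one. Btg2, an antiproliferative transcript, was at 13.1, 16.5 and 21.2 CPM and at 15.3, 29 and 40.8 CPM (0.75, SE 0.24). Npas4, an activity-dependent factor of neurons, had medians of 11.1 CPM and 17 CPM (0.70, SE 0.25), and Ier2 of 6.73 CPM and 9.71 CPM (0.65, SE 0.24). The part of handling or time of collection in these levels was not tested.

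Lists of energy metabolism had medians near that of all genes. The regulators of the AMPK, PGC-1 and NRF1 axis, which governs mitochondrial biogenesis, had a median of -0.01 over 22 genes. Of these, 1 was nominal and lower, beside 3.06% of all genes. It was Polrmt, the mitochondrial RNA polymerase (medians 38 CPM and 33.1 CPM, log2 fold change -0.14, SE 0.06). Ppargc1a was at 40.9, 43.4 and 48.2 CPM at 9 months and at 41, 43.2 and 46.7 CPM at 15 months, with an interval from -0.09 to 0.10 on the log2 scale. The interval of Nrf1 ran from -0.14 to 0.11 and that of Tfam from -0.11 to 0.08, but the log2 fold change of Tfam was 0.26 in DESeq2 with the authors' factors and 0.27 in limma, outside that interval. Glycolysis had a median of -0.02 over 20 genes, the TCA cycle -0.00 over 25, complex I -0.01 over 37 and complexes III to V -0.03 over 33. Each had at most 1 nominal gene, beside 6.88% of all genes in either direction. Over the 22 alternatives these 4 medians and that of the AMPK, PGC-1 and NRF1 list lay between -0.04 and 0.01. In glycolysis the nominal gene was Pfkfb3, the enzyme that sets fructose 2,6-bisphosphate (-0.14, SE 0.06, and -0.06 in DESeq2 with the authors' factors). The 13 mitochondrially encoded transcripts were all above 0, with a median of 0.06 (0.01 with GC and length offsets) and none nominal. Mitochondrial genes held 6.05% to 7.09% of counts at 9 months and 6.30% to 6.93% at 15 months. Ketone and fatty acid oxidation genes had a median of -0.05 over 22 (0.02 without 9M-Irreg replicate 6), among them Bdh1, which interconverts ketone bodies. Of this list 1 gene was nominal and lower, beside 3.06% of all genes, and its smallest adjusted p in edgeR was 0.719. Bdh1 was at 53.1 to 57.6 CPM and 50.3 to 53 CPM, without overlap (-0.10, SE 0.05, and -0.22 in limma on the normalized values). The gap was narrow, from 53.08 CPM in the lowest 9-month animal to 52.95 CPM in the highest 15-month animal. Groups apart in the lower direction were found for 0.118% of all genes. Cholesterol synthesis (-0.02 over 25) and lipoprotein and cholesterol transport (-0.03 over 20, and -0.06 without 9M-Irreg replicate 2) had no nominal gene.

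Steroid receptors and their coregulators had a median of -0.06, with 6 of 23 above 0 and 3 nominal and lower, beside 3.06% of all genes. The median was -0.02 without 15M-Irreg replicate 7 and -0.03 without 9M-Irreg replicate 6. Among them were the glucocorticoid-induced cochaperone Fkbp5 (83.8 CPM and 72.6 CPM; -0.23, SE 0.10) and the coactivator Ep300 (-0.09, SE 0.04, and -0.06 in DESeq2 with the authors' factors). Esr1, estrogen receptor alpha, was at 1.53, 2.20 and 2.29 CPM at 9 months and at 1.69, 2.41 and 3.29 CPM at 15 months. Its interval held 0 (0.28, -0.04 to 0.59). Esr2, estrogen receptor beta, was at most 0.75 CPM in any animal, which left its interval at -0.76 to 0.61. Genes of neurosteroid synthesis had a median of 0.01 over 12 tested and none nominal.

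Synaptic genes had medians of 0.03 (presynaptic, 22 genes) and -0.01 (postsynaptic, 22 genes), with none nominal. In the same step in APOE4, each list had 1 gene nominal and higher, beside 3.55% of all genes. The presynaptic median was 0.06 without 9M-Irreg replicate 5 and 0.01 without 9M-Irreg replicate 6. The postsynaptic median was 0.01 without 9M-Irreg replicate 1. Inhibitory neuron genes had a median of 0.02 over 17 (-0.01 without 9M-Irreg replicate 6). Of them 11 were above 0 and 6 below, and 2 were nominal and higher, beside 3.82% of all genes. Among these 2, Pvalb, the calcium buffer of fast-spiking interneurons, was at 28.9, 30.9 and 35.9 CPM and at 31, 38.9 and 43.5 CPM (0.25, SE 0.08, adjusted p = 0.474). Genes of neurogenesis and the cell cycle had a median of -0.07 over 23 (-0.01 without 15M-Irreg replicate 6 and -0.03 without replicate 7), with 15 below 0. Against that direction, Sox2, of neural stem cells (0.23, SE 0.07), and Dcx, of immature neurons (0.27, SE 0.13), were nominal and higher, beside 3.82% of all genes. Dentate gyrus markers had a median of -0.10 over 10, with Npnt (-0.25, SE 0.08) and Dsp (-0.33, SE 0.14) nominal and lower, beside 3.06% of all genes, and this median ran from -0.16 without 15M-Irreg replicate 1 to -0.04 without 9M-Irreg replicate 6. Collagens and basement membrane genes had a median of -0.13 over 18 (0.05 without 9M-Irreg replicate 3 and -0.24 without 15M-Irreg replicate 4). Of them 1 was nominal and lower, beside 3.06% of all genes. It was Lamb1, a laminin chain (-0.27, SE 0.10, and -0.10 in limma on the normalized values). Perineuronal net and matrix genes had a median of 0.01 over 16, chaperones -0.02 over 22 (0.03 without 9M-Irreg replicate 6) and clock genes -0.03 over 18, which ran from -0.24 to 0.30 with none nominal. The clock median was -0.08 without 9M-Irreg replicate 6 and 0.00 without 9M-Irreg replicate 4. The median of senescence genes was -0.08 over 15 (-0.19 without 15M-Irreg replicate 7 and -0.03 without 9M-Irreg replicate 3), and that of endothelium 0.08 over 13 (0.03 without 9M-Irreg replicate 5 and 0.13 without 9M-Irreg replicate 3). Pericytes and smooth muscle had a median of -0.05 over 10, which was 0.07 without 9M-Irreg replicate 3.

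**Figure D3:**
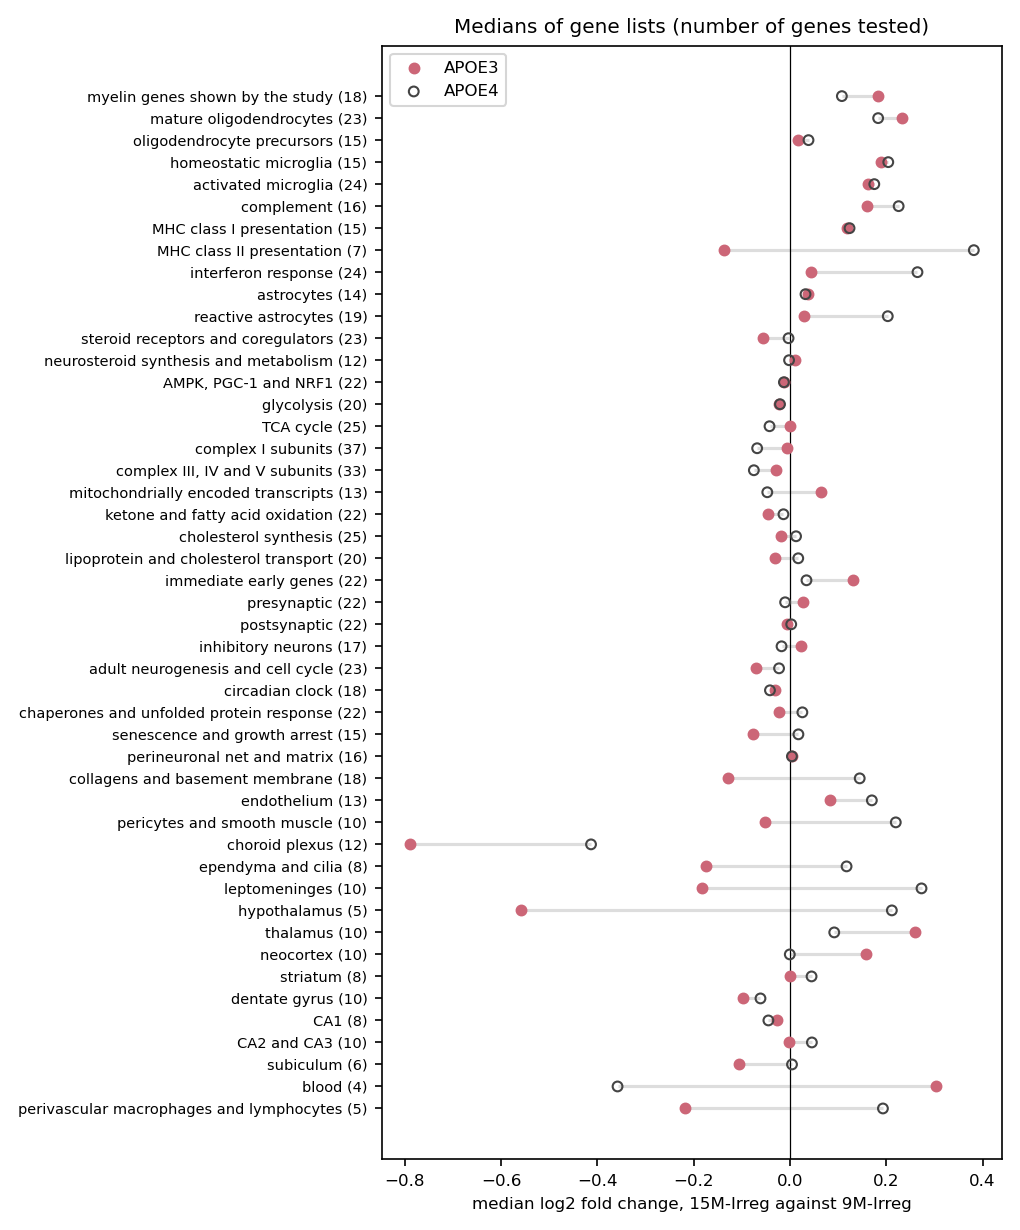
Median log2 fold change between the 15M-Irreg and 9M-Irreg groups for each gene list, in APOE3 (filled; 7 and 6 animals) and APOE4 (open; 7 and 6 animals), with the number of genes tested in brackets. The blood (0.30), thalamus (0.26), mature oligodendrocyte (0.23) and homeostatic microglial (0.19) lists lie farthest to the right in APOE3, the choroid plexus (-0.79) and hypothalamus (-0.56) farthest to the left, and metabolic lists near 0; the pituitary (-2.81) and Y-linked lists are left out.

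Transcripts of tissues that border the hippocampus varied between animals. Choroid plexus markers summed to 6717, 54.1, 8633, 9616, 64.0 and 14036 TPM in 9M-Irreg replicates 1 to 6 and to 55.6, 4517, 5691, 3862, 3687, 134 and 7949 TPM in 15M-Irreg replicates 1 to 7. Their median log2 fold change was -0.79, with 12 of 12 below 0 and none nominal, and it was -0.31 without 9M-Irreg replicate 6, the animal with the highest sum, and -0.33 in limma on the normalized values. With this sum as a covariate, 0 genes passed and 1530 were nominal, and the medians of the mature oligodendrocyte and homeostatic microglial lists were 0.23 and 0.19. Pituitary genes were 5 of 5 nominal and lower (all genes 3.06%), with a median of -2.81 that was 0.06 without 9M-Irreg replicate 2. Prl reached 69.9 CPM in the 9M-Irreg group, whose median was 1.51 CPM. Thalamic markers had a median of 0.26 with 3 of 10 nominal and higher (all genes 3.82%), and 15M-Irreg replicate 2 held the highest sum (183 TPM, beside 90.7 to 143 TPM in the rest of its group). Without that animal the thalamic median was 0.01 and 0 were nominal, while the mature oligodendrocyte median was 0.23. Hemoglobin and other erythroid genes had a median of 0.30 over 4. The summed level of this blood list was 314 to 595 TPM and 398 to 664 TPM. Of its 4 genes, 1 was nominal and higher, Hbb-bt (0.41, SE 0.19), beside 3.82% of all genes. Neocortical markers had a median of 0.16 (0.09 in limma on the normalized values), with 1 of 10 nominal and higher, beside 3.82% of all genes. Leptomeningeal markers had a median of -0.18 with none nominal. It was 0.03 without 9M-Irreg replicate 3, 0.02 without 9M-Irreg replicate 6 and -0.40 without 15M-Irreg replicate 4. Hypothalamic markers, with sums of 5.03 to 11.5 TPM and 2.73 to 8.56 TPM, had a median of -0.56 over the 5 tested, with 4 below 0 and none nominal, and it was -0.25 without 9M-Irreg replicate 3. The part of these tissues in the results was not tested beyond these values.

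**Figure D4:**
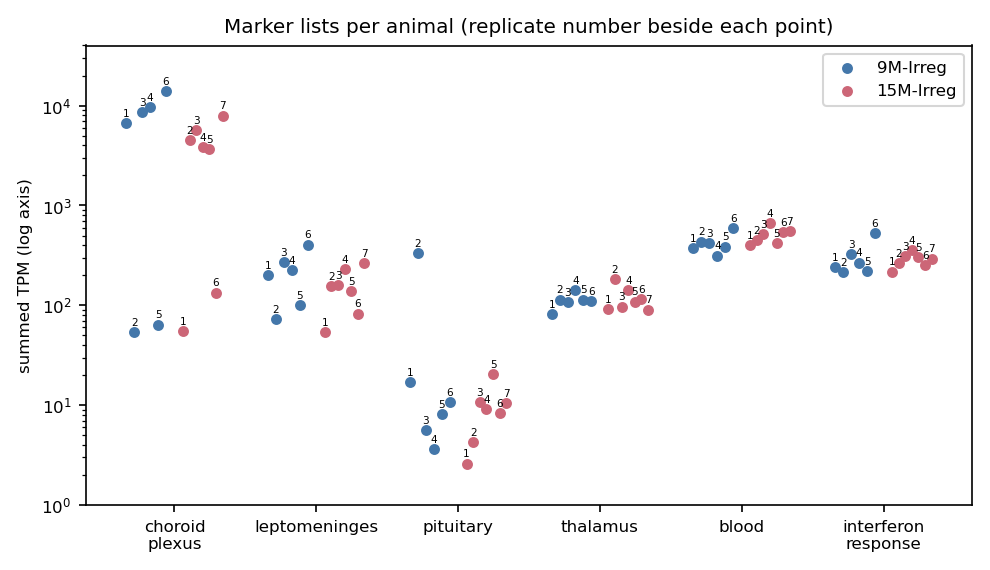
Summed TPM of marker lists in each APOE3 9M-Irreg (blue) and 15M-Irreg (red) animal on a log axis, with the replicate number at each point. Choroid plexus sums are at most 134 TPM in 2 animals of each group and at least 3687 TPM in the rest, and pituitary transcripts stand out in 9M-Irreg replicate 2 (334 TPM).

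The same step was taken by separate APOE4 animals, and the difference between the steps was tested as an interaction. No gene passed (0 of 18584, smallest adjusted p 0.741), and 1027 were nominal (5.53%). In APOE4, 4 genes were called, all higher at 15 months, and 659 were nominal and higher (3.55%). For C4b the log2 fold change was 0.63 (SE 0.11) in APOE4 and 0.30 (SE 0.11) in APOE3. For Mpeg1, a pore-forming protein of macrophages, it was 0.40 (SE 0.08) and 0.23 (SE 0.08). For Kdr, the endothelial VEGF receptor, it was 0.59 (SE 0.12) and 0.17 (SE 0.12), and for Itgax, an integrin of activated microglia, 1.94 (SE 0.40) and 0.60 (SE 0.38, and 0.39 in DESeq2 with the authors' factors). All 4 had the same sign in APOE3, where none was called, and the interaction called none of them.

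Of the 710 genes nominal and higher in APOE3, 61.4% were also higher in APOE4, as against 51.8% of the 568 lower ones and 52.4% of all genes with the same direction in both. Both nominal and of the same direction were 92 of the 710 (13%) and 25 of the 568 (4.40%), beside 3.87% of all genes with the same direction in both and nominal in APOE4. Across all genes, which are not independent, Pearson's r between the steps was 0.15. The mature oligodendrocyte list had an APOE4 median of 0.18 with 7 of 23 nominal and higher, and the homeostatic microglial list one of 0.20 with 8 of 15, beside 3.55% of all genes. In APOE4 the step was 0.05 (SE 0.08) for Bcas1, 0.03 (SE 0.23) for Dusp1 and -0.00 (SE 0.24) for Btg2 on the log2 scale, and none of these differences from APOE3 passed the adjusted test. Ctss (0.31, SE 0.06), Lcp1 (0.26, SE 0.07) and Pmp22 (0.26, SE 0.07) had APOE4 values close to those in APOE3. Of complex III to V genes, 14 of 33 were nominal and lower in APOE4 (median -0.07), beside 2.81% of all genes. In APOE3 it was 1 of 33 (median -0.03), beside 3.06% of all genes. Of the 20 genes of smallest p, 14 had the same direction in APOE4 and 3 were nominal there.

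The levels were also set among the 5 APOE3 stages. The steps below share animals with the main comparison, so they are given as levels and not as further evidence. Mature oligodendrocyte genes summed to medians of 4957 TPM at 6M-Reg, 5171 TPM at 9M-Reg, 4888 TPM at 9M-Irreg, 5808 TPM at 15M-Irreg and 5351 TPM at 15M-Acyc (n = 6, 7, 6, 7 and 3). The 9M-Irreg animals spread more widely (SD 636 TPM) than the 9M-Reg animals (SD 150 TPM). The median log2 fold change of the list was -0.07 for 9M-Irreg against 9M-Reg and 0.14 for 15M-Irreg against 9M-Reg, beside 0.23 for the main step. Homeostatic microglial genes summed to medians of 278, 280, 265, 295 and 299 TPM over the same stages. Bcas1 averaged 150 CPM at 6M-Reg, 155 CPM at 9M-Reg, 147 CPM at 9M-Irreg, 188 CPM at 15M-Irreg and 171 CPM at 15M-Acyc. Ctss averaged 50.8, 53, 54.4, 65 and 68.5 CPM, and C4b 81.5, 92.7, 97.5, 120 and 130 CPM. Compared to 9M-Reg, edgeR called 1 gene in 15M-Irreg, S100b (adjusted p = 0.033), and 1273 were nominal. Between 9M-Reg and 9M-Irreg, 0 genes were called and 438 were nominal, and between 15M-Irreg and 15M-Acyc 0 and 687.

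**Figure D5:**
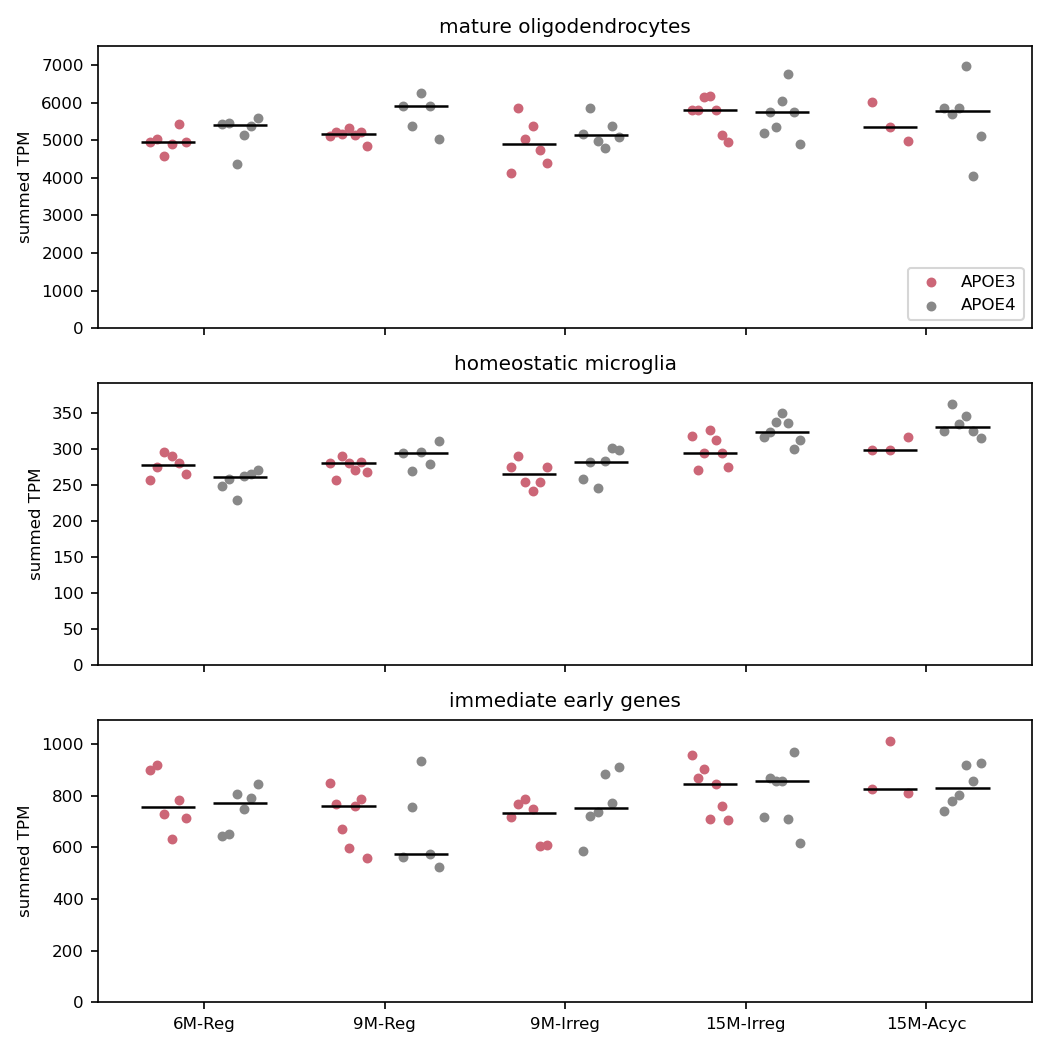
Summed TPM of mature oligodendrocyte, homeostatic microglial and immediate early genes in each animal at the 5 stages in APOE3 (red) and APOE4 (grey), with the median as a line and axes that start at 0. APOE3 oligodendrocyte medians lie between 4888 and 5171 TPM up to 9M-Irreg and at 5808 TPM in the 15M-Irreg group.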

How the data were processed

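Poly(A) RNA of frozen hippocampus was sequenced as stranded paired-end libraries by the authors, who quantified mouse cDNA (Ensembl release 95) with Salmon 0.15.0 and summed to genes with tximport. The deposited gene table holds estimated counts, rounded and not normalized, for 24439 genes. The deposited normalized values, a signal made by the authors with DESeq2, are the counts divided by factors that also carry transcript length. The transcript files deposited by the authors hold TPM and estimated counts for 134325 transcripts, and TPM was summed per gene here. Mapping was not repeated. GENCODE M21 (GRCm38) gave coordinates.

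Genes with at least 10 counts in 3 libraries were tested in edgeR 4.0.16 (TMM, quasi-likelihood test, R 4.3.3) in 1 model over 59 libraries and 10 groups, with no covariate. P-values were two-sided and adjusted by Benjamini-Hochberg over all genes tested. CPM used TMM library sizes. Intervals use 49 residual degrees of freedom. Library measures were compared by exact permutation. Scripts were tested on simulated data. Smallest chi-square per degree of freedom between 2 libraries of a group was 5.44, so none was a copy. Alternatives were RLE factors, DESeq2 1.42.0, limma 3.58.1 with a pseudocount of 1, other filters, only the groups compared, GC and length offsets, each replicate left out and, added after seeing the data, choroid plexus markers as a covariate.

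The comparison and the gene lists were chosen with earlier results of these data known. Named genes were the 20 of smallest p, since none was called, up to 4 members of smallest p per list, genes the study measured, genes called in APOE4, in 15M-Irreg against 9M-Reg or under an alternative, and mouse Apoe. How many members of each list are named (1 to 4, or 0) was set after their values were seen. Models without a symbol are given by Ensembl identifier. Counting was per gene symbol, so near-identical copies may share reads. P-values measure the spread between animals of 1 cohort per group. Some named genes are not reported here.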

Additional observations from a re-analysis of the deposited data

Results flagged for a closer look

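In 162 sets of values, 1 group of animals each, 14 had an animal apart from the rest of its group by Dixon's test, where chance gives about 1 in 20. In 9M-Irreg, replicate 2 held 334 TPM of pituitary transcripts and Tmem125 at 6.94 CPM. Replicate 6 held 532 TPM of interferon response genes, 3898 TPM of TCA cycle genes (next lowest 4120) and Tfam at 32.5 CPM, and replicate 1 held 63.3 TPM of subiculum markers. In 15M-Irreg, replicate 4 had the lowest total, 22928488 counts, with 9330188P03Rik at 4.42 CPM and Osbpl2 at 54.7 CPM, and replicate 5 had Ctss at 73.6 CPM. Replicate 7 held 2127 TPM of lipoprotein and cholesterol transport genes and 168 TPM of senescence genes. Replicate 1 held 4188 TPM of postsynaptic genes and 1.61 TPM of Y-linked genes, which were near the floor in all 13 females.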

How the results depend on the processing

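No paired analysis was possible because the libraries carry no replicate number of their own (numbers follow accession order) and the ages are separate cohorts. The count of genes that passed, 0 in the model over all libraries, was 0 under RLE factors, both filters, only the groups compared, GC and length offsets, limma and the added covariate. It was 3 under DESeq2 with its size factors (ENSMUSG00000079224, Bcas1 and 9330188P03Rik) and 4 with the authors' normalization factors (Arfgef2, Osbpl2, Dag1 and Bcas1). ENSMUSG00000079224 was at 0 in all 9-month animals and in the median 15-month animal. With 1 animal left out the count ran from 0 to 4, the 4 (Trem2, ENSMUSG00000081339, 9330188P03Rik and Bcas1) coming without 15M-Irreg replicate 7. Nominal genes ran from 1005 to 1437 with 1 animal left out and from 1097 to 1647 otherwise. The interaction count was 1 (Cc2d1b) with the authors' factors and 1 under limma, 0 otherwise, and 0 to 0 with 1 animal left out. The cause was not tested.

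Of 118 named genes under 22 alternatives, 10 reversed at least once. The 3 pituitary genes did so without 9M-Irreg replicate 2, and the other 7 had intervals that held 0. With 1 animal left out, log2 fold changes ran from -2.22 to 0.062 for Pomc, from -5.77 to 1.66 for Cga, from -3.23 to 0.33 for Prl, from -0.032 to 0.0028 for Tfam, from -0.28 to 0.074 for Esr2, from -0.21 to 0.22 for Il1b and from -0.021 to 0.036 for Ppargc1a, and the Nrf1 log2 fold change ran from -0.037 to 0.022. With the authors' factors (DESeq2) and under limma, Tfam was 0.26 and 0.27, Il1b -0.34 and -0.45, Ppargc1a -0.085 and -0.080, and Aco1, the TCA cycle gene of smallest p, 0.0024 and 0.0039. The Ppargc1a log2 fold change was -0.0021 with GC and length offsets. H2-DMb1, a class II gene, ran from -0.36 to 0.071. Medians of mature oligodendrocyte (0.18 to 0.28) and homeostatic microglial genes (0.16 to 0.23) were above 0 under all 22. Depth limits genes under about 1 CPM, such as Il1b, Esr2 and Clec7a.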
